A study of Homo sapiens with 3 samples.

Results

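The HOX genes are a family of 39 homeobox transcription factors that lie in 4 clusters, and all 39 were found among the 59719 gene names of the expression table. They were chosen by symbol alone: HOX, a cluster letter from A to D and a number from 1 to 13. The HOXA cluster holds 11 of them, HOXB 10, HOXC 9 and HOXD 9. Expression was measured by RNA-seq in PC3, an androgen-independent human prostate cancer cell line, in stable lines that carried pLKO.1 vectors and were selected with puromycin. There was 1 library from control cells (shCON, a vector control in the study's description) and 1 from cells with each of 2 hairpins against USP16 (shUSP16#1 and shUSP16#2). The authors deposited TPM, a level per transcript length that is scaled to the same sum in each library, so levels can be set beside each other between genes but the depth is unknown. With 1 library per condition no difference below has a replicate check, and no test across samples was possible.

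HOX proteins bind DNA through a homeodomain, mostly together with cofactors of the PBX and MEIS families, and give cells a position along the body axis. Their order on the chromosome follows their order of expression along that axis, with low numbers towards the head and high numbers towards the tail and the urogenital tract. They are the textbook targets of Polycomb complexes, which silence clusters by methylating histone H3 and by ubiquitinating histone H2A, and USP16 is one of the enzymes known to remove ubiquitin from H2A. The study itself asked about USP16 and c-Myc, and the HOX genes were not its subject.

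The hairpins that define the groups have these sense sequences, given here since the knockdown is the only difference between the libraries that the labels name.
shUSP16#1: gccagaagaaatcatgtttat
shUSP16#2: cggtgatattccacaagattt
USP16 was at 19.9 TPM in shCON and at 3.5 and 1.08 TPM in the shUSP16#1 and shUSP16#2 libraries. The epithelial keratins KRT8 (from 622 to 748 TPM) and KRT18 (from 778 to 947 TPM) were abundant in the 3 libraries and KLK2 and KLK3 were listed at 0. Of 5 leukocyte markers 4 were under 1 TPM in every library, with CD68 between 31.7 and 42.2 TPM. The 6 stromal and endothelial markers summed to 4.57, 11.9 and 6.44 TPM in shCON, shUSP16#1 and shUSP16#2, mostly COL1A1, with DCN listed at 0, and their part in the HOX levels was not tested. In such bulk RNA, fewer cells with a transcript and less of it per cell cannot be told apart.

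PC3 cells expressed HOXA, HOXB and HOXC genes and hardly any HOXD gene. Taking 1 TPM, averaged across libraries, as the minimum for an expressed gene, it was reached by 10 of 11 HOXA, 6 of 10 HOXB, 5 of 9 HOXC and 0 of 9 HOXD genes, 21 of 39 in all (53.8%). The 21 are described by fold change, beside the 13637 expressed genes of the whole table. Just inside it were HOXA2 and HOXB5, each with a mean of 1.09 TPM, and just outside it was HOXC9 (0.933 TPM). HOXB1, a gene of the hindbrain, and HOXD9, HOXD10 and HOXD11 were listed at 0 in every library.

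The summed level of the 39 genes was 191.3 TPM in shCON and 203.9 and 160.7 TPM with shUSP16#1 and shUSP16#2. HOXA9 was the highest in each library, at 53.3 TPM in shCON and at 45.1 and 36.4 TPM with shUSP16#1 and shUSP16#2, with the knockdown libraries below the control. HOXB9, HOXA10 and HOXB13 followed in shCON at 18.2, 17.9 and 17.2 TPM, and HOXA11 and HOXC10 at 11.8 and 11.7 TPM. All 6 carry a number of 9 or higher. Without replicates it cannot be said whether neighbours in this order differ, and HOXB13 stood above HOXB9 and HOXA10 in both knockdown libraries.

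**Figure D1:**
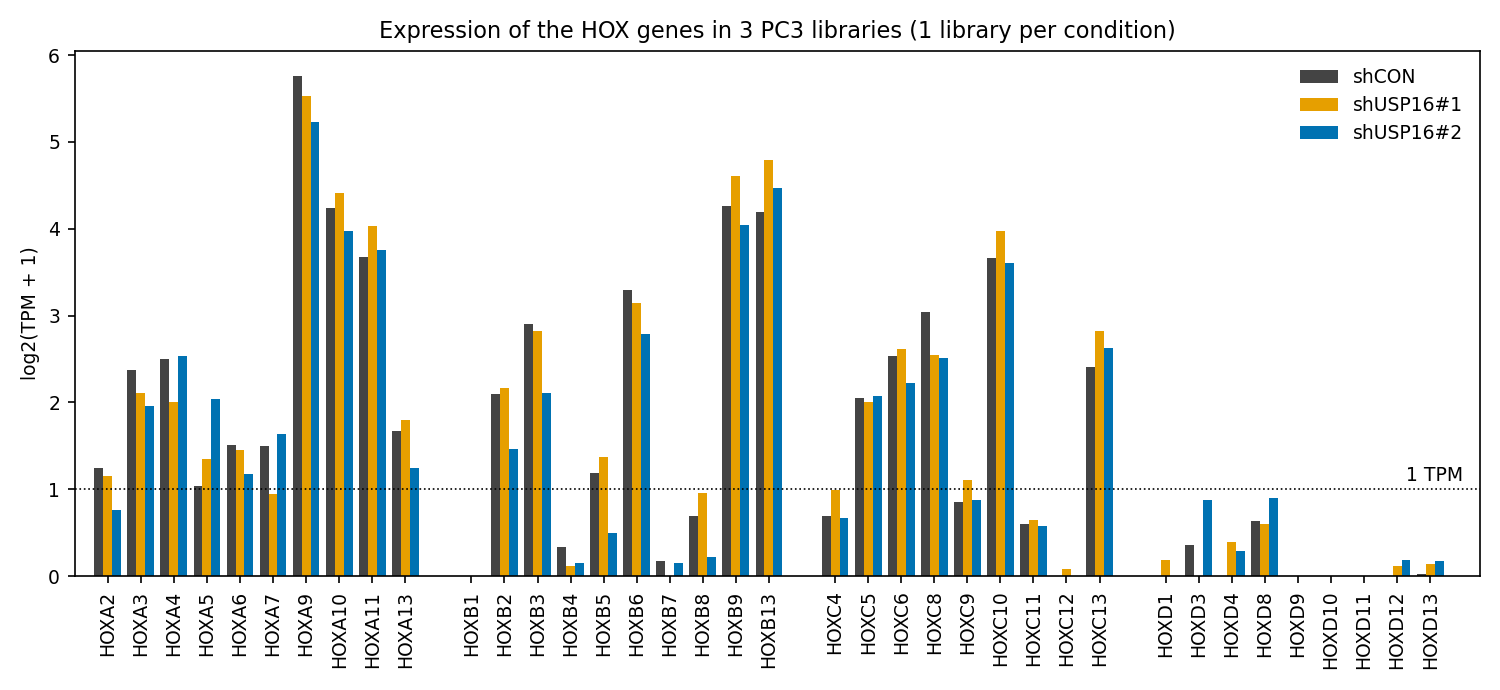
Each group of 3 bars is 1 HOX gene (38 drawn), ordered by cluster and number, with its level as log2(TPM + 1) in shCON, shUSP16#1 and shUSP16#2 (1 library each, no error bars); the dotted line marks 1 TPM. HOXA9 is the highest in each library, the highest gene of the HOXA, HOXB and HOXC clusters is numbered 9 or more, and no HOXD bar reaches the line.

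The genes numbered 9 to 13 (16 genes) held 72.1% of the HOX TPM in shCON, 76.5% under shUSP16#1 and 74.4% under shUSP16#2. Those numbered 1 to 4 (12 genes) held 11.6%, 9.71% and 9.75%, and those numbered 5 to 8 (11 genes) held 16.3%, 13.8% and 15.9%. The balance towards the tail end of the clusters was therefore present in each library. The HOXA cluster summed to 101.1, 96.1 and 80.3 TPM, HOXB to 56.3, 70.1 and 48.4 TPM, and HOXC to 33.0, 36.5 and 29.9 TPM in the same order of libraries. HOXD summed to 0.85, 1.15 and 2.18 TPM.

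**Figure D2:**
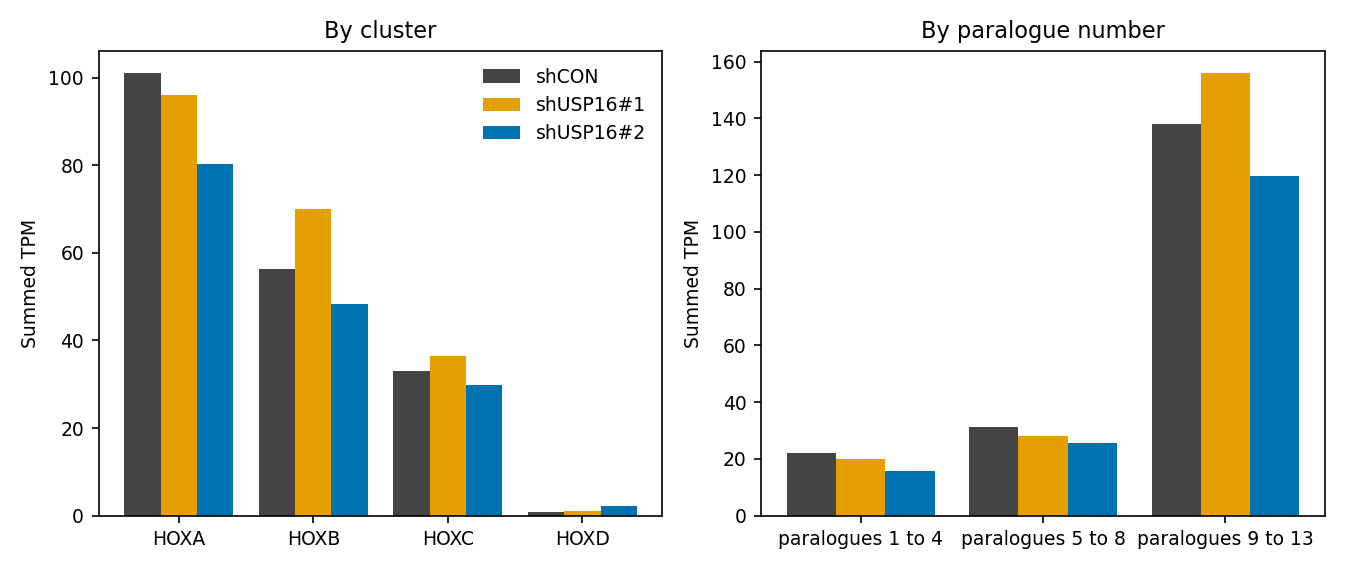
Bars give the summed TPM of the HOX genes by cluster (left) and by number within the cluster (right) in the 3 libraries, 1 library per bar. HOXA is the highest and HOXD the lowest cluster in each library, and genes 9 to 13 hold between 72.1% and 76.5% of the sum.

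Expression was not even along a cluster. In HOXB, whose gene 13 lies apart from the others, HOXB9 was at 18.2, 23.4 and 15.4 TPM and HOXB6 at 8.79, 7.82 and 5.91 TPM, while HOXB7, which lies between them, was at 0.13, 0 and 0.11 TPM. HOXB8, also between them, was at 0.61, 0.94 and 0.16 TPM. HOXB4, known from blood stem cells, was at 0.26, 0.08 and 0.11 TPM beside HOXB3 at 6.49, 6.07 and 3.31 TPM. Each of these low values held in the 3 libraries. In HOXC, HOXC11 was between 0.49 and 0.56 TPM and HOXC12 was listed at 0 in shCON and shUSP16#2 and at 0.06 TPM under shUSP16#1, with HOXC10 and HOXC13 expressed on either side.

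To set promoter sequence beside these levels, the 250 bases before the RefSeq start (GRCh38.p14, the build of that table, while the submitters' notes name hg19) follow for 2 expressed HOXA genes and 2 HOXD genes listed at 0. They were picked from the genes with an E-box match, since the study concerned c-Myc. Capitals mark the E-box CACGTG, the sequence that MYC with MAX is known to bind, and the TATA box TATAAA on either strand.
HOXA9 (chr7:27165538-27165787, reverse strand): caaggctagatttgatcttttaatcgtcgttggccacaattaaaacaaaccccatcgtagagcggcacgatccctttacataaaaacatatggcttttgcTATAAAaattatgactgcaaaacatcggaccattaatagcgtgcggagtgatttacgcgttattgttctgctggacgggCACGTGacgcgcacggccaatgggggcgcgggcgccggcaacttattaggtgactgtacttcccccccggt
HOXA4 (chr7:27130758-27131007, reverse strand): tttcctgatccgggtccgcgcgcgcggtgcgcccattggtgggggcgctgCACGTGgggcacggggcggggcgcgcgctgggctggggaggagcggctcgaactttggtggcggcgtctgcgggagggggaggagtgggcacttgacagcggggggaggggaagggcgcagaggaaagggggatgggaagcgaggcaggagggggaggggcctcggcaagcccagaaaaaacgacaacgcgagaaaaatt
HOXD10 (chr2:176116528-176116777, forward strand): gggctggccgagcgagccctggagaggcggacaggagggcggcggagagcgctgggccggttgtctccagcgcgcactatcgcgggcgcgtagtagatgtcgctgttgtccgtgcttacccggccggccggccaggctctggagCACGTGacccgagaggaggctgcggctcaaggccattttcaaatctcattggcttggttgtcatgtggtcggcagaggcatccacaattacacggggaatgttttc
HOXD11 (chr2:176107030-176107279, forward strand): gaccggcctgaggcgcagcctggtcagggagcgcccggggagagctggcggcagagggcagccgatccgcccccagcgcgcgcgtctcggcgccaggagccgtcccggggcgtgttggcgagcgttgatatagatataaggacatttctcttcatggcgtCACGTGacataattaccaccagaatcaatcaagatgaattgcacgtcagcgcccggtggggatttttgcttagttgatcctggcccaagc
So chosen, each sequence holds 1 E-box, in front of a gene at 53.3 TPM as well as of genes listed at 0. HOXA9 also has a TATA box. RefSeq windows from 250 bases before to 50 after the start were matched for 20 of the 39 genes, as 26 different windows, 7 of them from the alternative starts of HOXA3 and 1 shared by HOXC4 and HOXC5. CACGTG was in 9 of the 26 windows (34.6%), from 9 genes, against 7.23% of 34943 windows of all genes. CpG-rich windows hold it more often: among windows with a CpG observed over expected ratio of at least 0.6 it was in 8 of 21 HOX windows (38.1%) and in 10.05% of 17032 windows. By expression the count was 4 of 16 windows of expressed genes and 5 of 10 windows of the others, with the window shared by HOXC4 and HOXC5 counted among the latter. All 16 windows of expressed genes were from HOXA, and 8 of the 10 others from HOXD. Expression and cluster therefore cannot be told apart here, and no expressed HOXB gene had a window. The TATA box was in 5 of the 26 windows (19.2% against 11.6% of all) and the GC box GGGCGG, searched on both strands, in 13 (50% against 44.9%). The median CpG ratio was 0.855 for the HOX windows and 0.577 for all windows. These are matches of letters, and binding was not measured.

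The change of the 21 expressed HOX genes under each hairpin was mostly small, as it was for other genes of like GC content. None differed at least 2-fold in the same direction under both hairpins, a count near the share over all genes. Each change is the log2(TPM + 1) of a knockdown library less that of shCON, and at low levels this understates a fold. Of all 13637 expressed genes 4.6% were at least 2-fold lower and 1.14% at least 2-fold higher under both hairpins. Under shUSP16#1 alone 0 of 21 HOX genes were past 2-fold, where 5.79% of all expressed genes were lower and 2.84% higher. Under shUSP16#2 alone 0 of 21 were 2-fold lower, where 19.5% of all expressed genes were, and 1 was 2-fold higher, where 2.8% were. That gene was HOXA5, at exactly 1.0 on the log2(TPM + 1) scale. In plain TPM its ratio to shCON under shUSP16#2 was 2.95, and that of HOXB5 was 0.32, both at low levels. Among the 3163 expressed genes between the 10th and the 90th percentile of HOX GC content, 154 were at least 2-fold lower and 94 higher under shUSP16#2, and 44 lower and 42 higher under both hairpins. The sizes of change were also smaller than in the whole table, with a median absolute log2 change of 0.24 against 0.40 under shUSP16#1 and 0.33 against 0.53 under shUSP16#2. In the genes of like GC content these medians were 0.29 and 0.34.

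The median log2 change of the 21 genes was 0.07 under shUSP16#1, within a range from -0.55 to 0.61, and -0.31 under shUSP16#2, within a range from -0.80 to 1.0. All expressed genes had medians of -0.17 and -0.37, so relative to them the HOX medians were 0.24 and 0.06. Under both hairpins 7 HOX genes (33.3%) were lower and 4 (19.0%) higher, against 57.2% and 24.5% of all expressed genes. The other 10 (47.6%) differed in direction between the hairpins, against 17.4% of all expressed genes. Of the genes of like GC content 45.3% were lower under both, 31.1% higher under both and 22.7% differed in direction. Centred on the overall median, 10 HOX genes (47.6%) were higher under both, near the 41.7% of all expressed genes. On this scale 3 (14.3%) were lower under both, where 41.7% of all were. Of the genes of like GC content 55.7% were higher and 23.9% lower on that scale. Under shUSP16#2 17 of the 21 (81.0%) were lower than under shUSP16#1, as were 73.4% of all expressed genes. The comparisons share the shCON library, so agreement between them is no independent support.

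**Figure D3:**
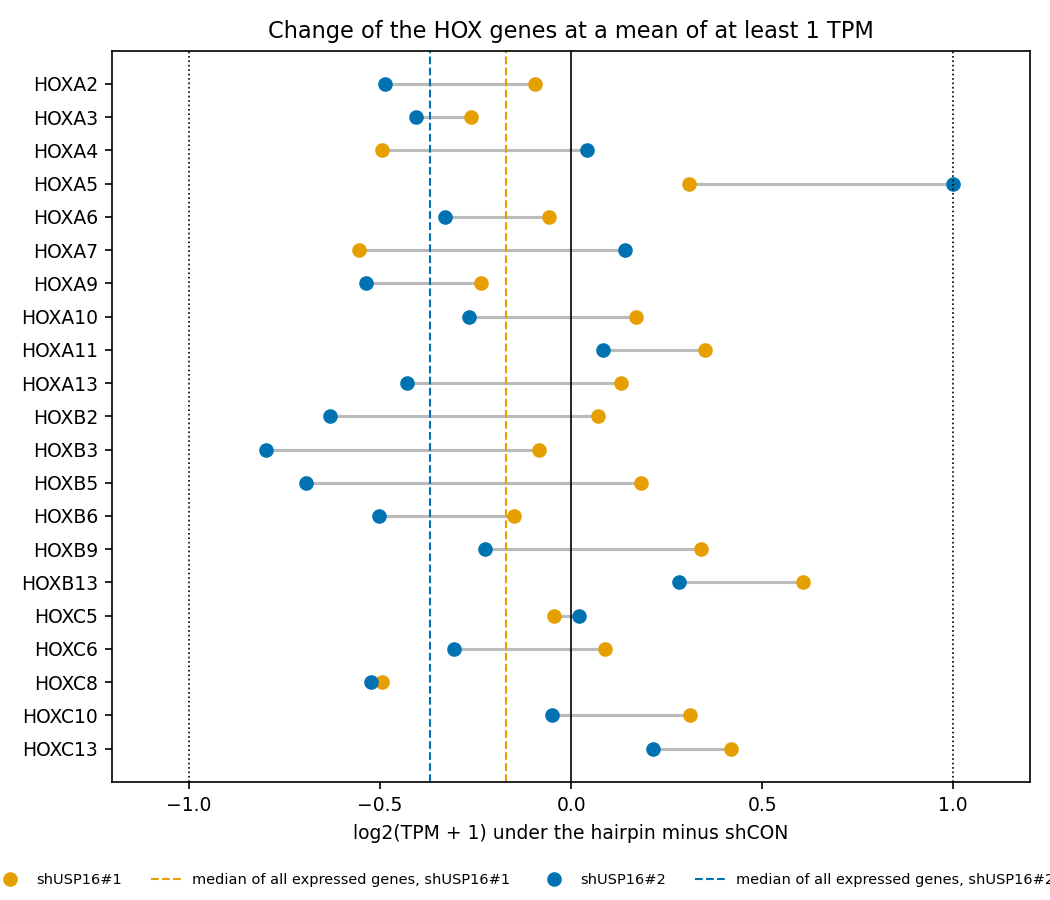
Points give the log2(TPM + 1) difference from shCON of the 21 expressed HOX genes, for shUSP16#1 and shUSP16#2, joined by a grey line; dashed lines mark the medians of all expressed genes (-0.17 and -0.37) and dotted lines a 2-fold change. All points lie within the 2-fold lines except HOXA5 under shUSP16#2, which lies on the line, and 10 genes have points on both sides of 0.

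HOXA5, known for its role in lung development, was at 1.05 TPM in shCON and at 1.54 and 3.1 TPM with shUSP16#1 and shUSP16#2. It was higher in both knockdown libraries, with log2 changes of 0.31 and 1.0, and was the only HOX gene higher under both in each of 4 settings: as deposited, centred on the overall median, after GC removal and at a pseudocount of 0.1 TPM. Its level of about 1 TPM in shCON is among the lowest of the expressed HOX genes, and the counting error behind it is unknown.

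HOXB13, a homeobox factor of the prostate lineage, was at 17.2 TPM in shCON and at 26.8 and 21.2 TPM with shUSP16#1 and shUSP16#2. Both knockdown libraries were above the control, by 0.61 and 0.28 on the log2 scale, but with the GC trend removed the change under shUSP16#2 was -0.10. HOXC13, which is known from hair follicles, was at 4.31, 6.09 and 5.16 TPM, and HOXA11, known from limb and uterus, at 11.8, 15.3 and 12.5 TPM. Their log2 changes were 0.42 and 0.21, and 0.35 and 0.08, and like that of HOXB13 the change under shUSP16#2 was below 0 with the GC trend removed.

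Of the 7 genes lower under both hairpins, HOXA3, HOXA9 and HOXC8 stayed so in each of these settings. Once centred, the changes were only -0.09 and -0.04 for HOXA3 and -0.06 and -0.17 for HOXA9. For HOXC8 they were -0.32 and -0.16. The share of all expressed genes that stayed lower in each setting was not counted. HOXA9, a partner of MEIS1 in leukaemia, had log2 changes of -0.24 and -0.54. HOXC8, which patterns the trunk, was at 7.2, 4.82 and 4.7 TPM, with log2 changes of -0.49 and -0.52, so the knockdown libraries lay close together and below the control. HOXA3, which acts in the pharyngeal arches, was at 4.17, 3.31 and 2.9 TPM, with log2 changes of -0.26 and -0.41. The other 4 were HOXA2 (1.37, 1.22 and 0.69 TPM), HOXA6 (1.84, 1.73 and 1.26 TPM), HOXB3 and HOXB6, which after centring were no longer lower under both hairpins.

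Of the clusters, HOXB differed most between the hairpins. All 6 expressed members were lower under shUSP16#2 than under shUSP16#1, as were 73.4% of all expressed genes. So were all 8 expressed HOX genes numbered 9 to 13. In the 6 HOXB genes the median difference was 0.63 on the log2 scale, against 0.21 for all expressed genes. Under shUSP16#1 the median change of the 6 was 0.13, and under shUSP16#2 it was -0.57, or -0.20 once centred. HOXB3 was at 6.49, 6.07 and 3.31 TPM, HOXB2, a hindbrain gene, at 3.27, 3.48 and 1.76 TPM, and HOXB5 at 1.28, 1.59 and 0.41 TPM. For each of them shCON and shUSP16#1 were close and shUSP16#2 stood lower. With the GC trend removed, HOXB2 and HOXB3 were at least 2-fold lower under shUSP16#2, with log2 changes of -1.01 and -1.18. The share of all expressed genes was not counted in that setting, and as deposited it was 19.5%. The HOXB genes had the highest median GC content of the 3 expressed clusters, 57.0%, and the part of GC content in these values was not tested.

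In HOXA4, HOXA7 and HOXA5, and by little in HOXC5, shUSP16#2 was instead the higher of the knockdown libraries. HOXA4 was at 4.65 TPM in shCON and at 3.01 and 4.81 TPM with shUSP16#1 and shUSP16#2, and HOXA7 at 1.82, 0.92 and 2.11 TPM. In HOXA4 and HOXA7 shUSP16#1 was the low library and shUSP16#2 was near shCON. The expressed HOXC genes had medians of 0.09 and -0.05, with HOXC5 at 3.14, 3.01 and 3.2 TPM as the gene of the 21 with the smallest changes. HOXC6 was at 4.78, 5.15 and 3.67 TPM, and HOXC10, known from the hindlimb, at 11.7, 14.7 and 11.2 TPM. HOXA10, a gene of the uterus and of blood cells, was at 17.9, 20.2 and 14.7 TPM, above shCON with shUSP16#1 and below it with shUSP16#2.

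By number within the cluster, the 8 expressed genes numbered 9 to 13 had a median log2 change of 0.33 under shUSP16#1 and -0.14 under shUSP16#2, and 7 and 6 of them lay above the median of all expressed genes. HOXA9 lay below it under both hairpins and HOXA13, a gene of the distal limb and urogenital tract, at 2.18, 2.48 and 1.36 TPM, under shUSP16#2. The 5 expressed genes numbered 1 to 4 had medians of -0.09 and -0.49, and the 8 numbered 5 to 8 had medians of -0.05 and -0.32. With the GC trend removed the medians were 0.21 and -0.20 for genes 9 to 13, -0.35 and -0.74 for genes 1 to 4 and -0.36 and -0.48 for genes 5 to 8. The order with genes 9 to 13 highest was the same in each, as a description of 3 libraries.

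Genes under 1 TPM in shCON stayed under it after the knockdown except HOXC9, which was at 0.8 TPM in shCON, 1.16 TPM with shUSP16#1 and 0.84 TPM with shUSP16#2. Of the 39 genes 16 were under 1 TPM in every library. HOXC4 was at 0.61, 0.99 and 0.59 TPM. In the HOXD cluster, HOXD3 was at 0.28 TPM in shCON, listed at 0 under shUSP16#1 and at 0.83 TPM under shUSP16#2. HOXD8 was at 0.55, 0.52 and 0.86 TPM, and HOXD4 was listed at 0 in shCON and at 0.31 and 0.22 TPM under the hairpins. HOXD13, which shapes the digits, was at 0.02, 0.1 and 0.13 TPM. HOXD12 was listed at 0 in shCON and at 0.08 and 0.14 TPM, and HOXD1 was above 0 in shUSP16#1 alone, at 0.14 TPM. The knockdown values of HOXD4, HOXD12 and HOXD13 were all above shCON, but none reached 1 TPM, and no fold is given for levels this low.

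Transcripts of the 21 HOX genes were richer in GC than those of all expressed genes, with a median GC content of 55.2% against 49.8%. The changes in these libraries followed GC content, so the HOX values were also read against genes of like composition. The 3163 expressed genes between 50.8% and 57.8% GC had median log2 changes of -0.01 and -0.15, beside 0.07 and -0.31 for the HOX genes. With the GC trend removed, the HOX medians were -0.12 and -0.44 against -0.17 and -0.37 for all expressed genes. Under this setting 11 HOX genes were lower and 2 higher under both hairpins. The share of all expressed genes was not counted under it, so these 2 counts have no comparison.

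**Figure D4:**
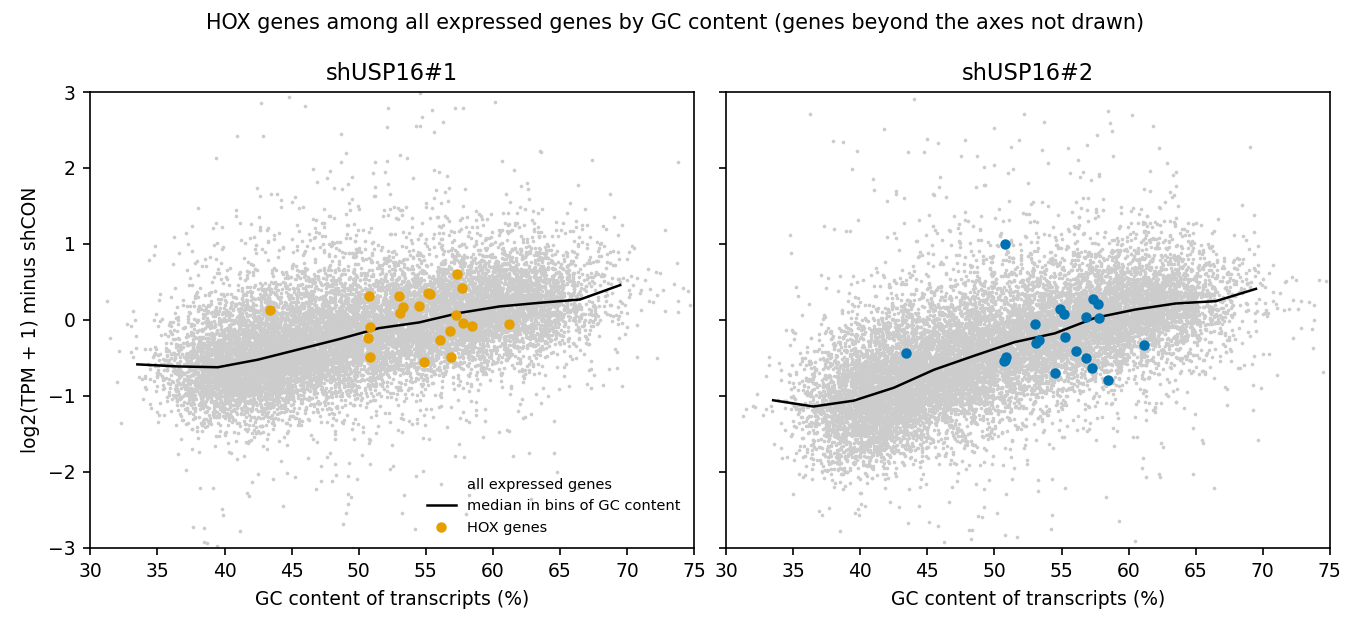
Each grey point is an expressed gene, with the GC content of its transcripts in percent on the x axis and its log2(TPM + 1) difference from shCON on the y axis, for shUSP16#1 (left) and shUSP16#2 (right). The black line is the median in bins of GC content and rises with GC; coloured points are the 21 HOX genes, which lie on both sides of it around a median GC content of 55.2%.

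Neighbouring HOX genes share exons with each other and with antisense RNAs, and whether the counting used strand is not given in the sources used here. In GENCODE release 29, 16 of the 21 expressed genes share exonic bases with another gene, and 10 share over 10% on at least 1 strand. HOXA7 shares 62.5% with HOXA-AS3 on the opposite strand, HOXA6 39.3% with the same RNA and HOXA11 31.1% with HOXA11-AS. HOXA9 shares 15.9% with genes on its own strand and 13.9% with HOXA10-AS on the other. HOXC5 shares 59.9% with other genes on its own strand. Among them is an entry listed by the authors as AC012531.2, which was at 0.71, 0.89 and 0.6 TPM. GENCODE release 29 gives that entry the name HOXC5 too, so the HOXC5 values above are those of 1 of 2 entries. Their values are uncertain to that extent. HOXA2, HOXA5, HOXB9, HOXB13 and HOXC8 share no exonic base with another gene in that release. This limit was therefore not seen for HOXA5, HOXB13 and HOXC8 above, though the authors' annotation is not known and may differ.

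The clusters also transcribe non-coding RNAs, of which 24 named ones were looked up and 8 reached a mean of 1 TPM. Their median log2 changes were 0.25 and 0.10, which became 0.42 and 0.47 when centred on the overall median and 0.01 and -0.16 with the GC trend removed. Under both hairpins 4 were higher and 2 lower, where 24.5% and 57.2% of all expressed genes were. On the log2(TPM + 1) scale none was past 2-fold under both, where 1.14% of all were higher and 4.6% lower. HOXA10-AS was the highest, at 34.4, 33.3 and 29.5 TPM. HOTAIRM1, an antisense RNA of the HOXA cluster, was at 14.2, 21.9 and 17.9 TPM, above shCON in both knockdown libraries. HOTAIR, the antisense RNA of the HOXC cluster known for its ties to Polycomb, was at 1.88, 3.19 and 1.87 TPM, so only shUSP16#1 stood above the control. HOXB-AS3 was at 0.78, 2.92 and 1.91 TPM, with log2 changes of 1.14 and 0.71, the largest increase over shCON of the 8 under each hairpin on this scale. In plain TPM it was more than 2-fold higher under both, from a shCON level under 1 TPM, and the share of all expressed genes was not counted so. In the HOXD cluster HOXD-AS2 was at 9.47, 11.8 and 14.1 TPM, more than the whole of the HOXD genes, whose sum did not pass 2.18 TPM. It lies on the other strand and overlaps the annotated bodies of HOXD3, HOXD8 and HOXD9, and part of its exonic bases lie in exons of HOXD3. With the GC trend removed HOXD-AS2 had log2 changes of -0.12 and -0.06 and HOXA11-AS of -0.17 and -0.23, so that both were lower than shCON, while HOTAIRM1 (0.56 and 0.27) and HOXB-AS3 (0.90 and 0.38) were still higher. The miRNA genes of the clusters (MIR10A, MIR10B, MIR196A1, MIR196A2, MIR196B and MIR615) were listed at 0, and a library of long RNA does not capture mature miRNAs.

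**Figure D5:**
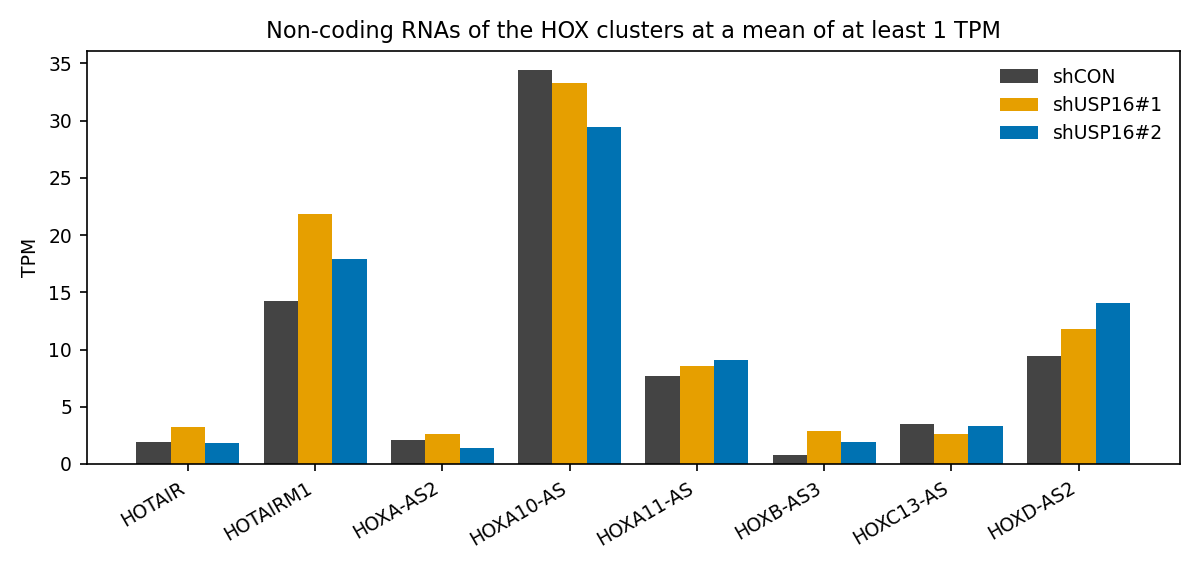
Bars give the TPM of the 8 expressed non-coding RNAs of the HOX clusters, in the 3 libraries (1 library per bar). HOXA10-AS is the highest at 29.5 to 34.4 TPM, and HOTAIRM1, HOXA11-AS, HOXB-AS3 and HOXD-AS2 are higher in both knockdown libraries than in shCON, which turns for HOXA11-AS and HOXD-AS2 with the GC trend removed.

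The PBX, MEIS, PKNOX and TGIF genes encode the TALE homeodomain family to which the HOX cofactors belong, and 9 of 11 reached a mean of 1 TPM. Their medians were 0.05 and -0.03, with 4 lower and 4 higher under both hairpins, where 57.2% and 24.5% of all expressed genes were. The count past 2-fold under both was 0, where 4.6% of all were lower and 1.14% higher. PBX2 was at 28.6, 29.6 and 27.9 TPM and PBX3 at 4.15, 2.91 and 1.81 TPM, and MEIS1 at 0.82, 0.68 and 1.4 TPM. Among 27 genes known to control HOX clusters, which include Polycomb and Trithorax subunits, CDX factors and retinoid receptors, 21 were expressed, with a median GC content of 47.1%. Of these 15 (71.4%) were lower and 4 (19.0%) higher under both hairpins, against 57.2% and 24.5% of all expressed genes. Their medians were -0.23 and -0.77, or -0.24 and -0.54 with the GC trend removed. None was past 2-fold under both on the log2(TPM + 1) scale. In plain TPM EZH2 and SUZ12 were more than 2-fold lower under both, with log2 changes of -0.97 and -0.96 under shUSP16#1. The share of all expressed genes past 2-fold in plain TPM was not counted. On the log2(TPM + 1) scale 7 of the 21 were at least 2-fold lower under shUSP16#2, where 19.5% of all were. They include EZH2, the Polycomb methyltransferase, at 28.3, 13.9 and 9.67 TPM, and BMI1, a subunit of the H2A ligase, at 20.3, 11.3 and 5.85 TPM, both named after their values were seen. With the GC trend removed the change under shUSP16#2 was -1.05 for EZH2 and -0.94 for BMI1, which was then short of 2-fold. RING1 and CBX2, also Polycomb subunits and also named after their values were seen, were among the 4 higher under both hairpins. Their log2 changes were 0.55 and 0.41 for RING1 and 0.64 and 0.32 for CBX2. GC removal left -0.08 for RING1 and -0.17 for CBX2 under shUSP16#2. As deposited, the Polycomb subunits of the list therefore did not all change in the same direction. CDX1, CDX2 and CDX4, which switch on HOX genes in the embryo, were listed at 0.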

How the data were processed

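RNA-seq was performed by Majorbio on total RNA from PC3 cells, with TruSeq libraries, and profiles came from the Majorbio Cloud Platform. The submitters' processing notes name CASAVA, HISAT2 and hg19. The quantification tool, annotation and use of strand are not given in the sources used here. The authors deposited TPM values with 2 decimals for 60930 entries, and 3 columns that repeat others were not used. TPM keeps no depth, so no interval was given. Of entries sharing a name the one with the highest mean was kept (1211 left out). Genes averaging 1 TPM or more (13637) were taken as expressed, and changes were differences of log2(TPM + 1). No test across samples could be made with 1 library per condition. The fold threshold was 2.

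GC content was taken over all transcripts of a gene in GENCODE release 29, and its trend was taken out as the median change in 50 bins. Exon overlaps came from the same release (GRCh38), whose coordinates were not tied to the authors' build. Protein sequences were not used here. The 39 members and all lists were chosen with earlier results of these data known. Members enter all counts and sums, and the values of 1 member and of some other genes are not reported here. From the other lists genes past 2-fold under both hairpins were to be named. As none was on the log2(TPM + 1) scale, the few named there were picked with their values seen. The procedures were run on simulated data with large known changes and little noise, unlike these libraries. That checks the computation and not the HOX results. Python 3.11.15, numpy 2.4.6, pandas 2.3.3 and matplotlib 3.10.9 were used. Alternatives were a pseudocount of 0.1 TPM, centring, GC removal, other minimum levels and each hairpin alone.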

Additional observations from a re-analysis of the deposited data

How the results depend on the processing

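No paired analysis was possible because there is only 1 library in each group. The counts of 0 HOX genes past 2-fold under both hairpins, lower and higher, held with a pseudocount of 0.1 TPM, centring, GC removal, no minimum and a minimum of 5 TPM. With a single hairpin, 1 was 2-fold higher under shUSP16#2. The 2-fold counts of each hairpin under the other settings were chosen after seeing the data. Under shUSP16#2 the count of lower genes moved from 0 to 1 with a pseudocount of 0.1 TPM (HOXB5) and 2 with the GC trend removed. That of higher genes moved from 1 to 0 with the GC trend removed and with a minimum of 5 TPM. With the smaller pseudocount and with the GC trend removed the share of all expressed genes past 2-fold was not counted.

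The median of 0.069 under shUSP16#1 became 0.087 with a pseudocount of 0.1 TPM, 0.24 after centring, -0.12 after GC removal and 0.24 with a minimum of 5 TPM. The median of -0.31 under shUSP16#2 became -0.37, 0.060, -0.44 and -0.25 under the same settings and -0.018 with no minimum, which adds genes near 0. Genes lower under both hairpins (7) numbered 3 when centred, 11 with the GC trend removed, 4 with a minimum of 5 TPM and 14 under shUSP16#2 alone. Of all expressed genes 41.7% were lower under both when centred, 58.0% with a minimum of 5 TPM and 70.2% under shUSP16#2 alone. Genes higher under both (4) numbered 10 when centred, 2 with the GC trend removed, 8 with no minimum, and 11 and 7 under shUSP16#1 and shUSP16#2 alone. Of all 13637 expressed genes 41.7% were higher under both when centred, and 5139 and 4021 were higher under shUSP16#1 and shUSP16#2 alone. With the GC trend removed and with no minimum the share of all genes was not counted. Centring turned the sign of the mean change of 8 of 21 genes, GC removal that of 3 and the smaller pseudocount that of 0. The 21 expressed genes were 10 with a minimum mean of 5 TPM. Depth is unknown, so the counting error of low genes could not be estimated.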

Other observations

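The HOX genes can be set beside 76 other homeobox and paired-box genes of development, most of them also known as Polycomb targets. Of these 22 reached a mean of 1 TPM (28.9%, against 53.8% of the HOX genes) and 29 were listed at 0 in every library. EVX1 and EVX2, which flank the HOXA and HOXD clusters, were at most at 0.03 TPM and listed at 0. The median log2 changes of the 22 were -0.39 (shUSP16#1) and -0.43 (shUSP16#2), which centred on the overall median are -0.22 and -0.06. With the GC trend removed they were -0.49 and -0.63, against -0.17 and -0.37 for all expressed genes. Of the 22 genes 15 (68.2%) were lower and 3 (13.6%) higher under both hairpins, where 57.2% and 24.5% of all expressed genes were. None was past 2-fold under both on the log2(TPM + 1) scale, which understates a fold at low levels. In plain TPM some of the 22 were, among them PAX8, but the share of all expressed genes was not counted so. The median GC content of the 22 was 58.2%, above that of the HOX genes.

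The genes named next were chosen after their values were seen. PAX8, a factor of kidney and thyroid, was at 7.18 TPM in shCON and at 3.59 and 2.02 TPM in the shUSP16#1 and shUSP16#2 libraries. PITX1, a hindlimb factor, was at 16.5, 24.0 and 29.6 TPM, higher in both knockdown libraries, but its log2 changes of 0.51 and 0.80 were 0.07 and 0.19 with the GC trend removed. BARX2 was the most abundant of the 22 at 51.5, 35.0 and 39.1 TPM. No test compares these genes with the HOX genes.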
